A study of Mus musculus with 2 samples.

Results

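Mir204 and Mir211, the genes of the paralogous microRNAs (miRNAs) miR-204 and miR-211, were described in small RNA of aged mouse brain, from the cerebral cortex of the left side. They were taken from the tables of reads per miRNA gene by their symbols in the GENCODE M21 annotation. That rule does not use their levels, and they are 2 of 2202 genes in those tables. The samples form 1 group of 2 libraries, biological replicates 1 and 2, of RNA below 30 nt from left cortex of the B6CASTF1/J hybrid at 18 to 20 months of age. B6CASTF1/J mice are F1 offspring of C57BL/6J and CAST/EiJ parents. No allele, agent or treatment is named, the labels call the animals both male and female, and both tissue samples point to 1 donor record. Whether they came from separate animals is therefore not known, and differences between the libraries can in part be technical. No condition was compared: the comparisons lie between the paralogs, between them and other miRNA genes, and between the libraries.

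A miRNA guides Argonaute proteins to messenger RNAs that pair with its seed, so miRNAs with a shared seed can address overlapping sets of targets. miR-204 and miR-211 are such a pair, each processed from an intron of a gene for a TRPM cation channel. Trpm3, the host of Mir204, encodes a channel opened by heat and by neurosteroids and is used in choroid plexus, pigment epithelium and sensory neurons. Trpm1, the host of Mir211, encodes the transduction channel of retinal ON bipolar cells and is a melanocyte gene. miR-204 is known as an abundant miRNA of the choroid plexus and of the retinal pigment epithelium, and miR-211 as a miRNA of pigment cells.

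The mature sequences are shown because they decide which reads can be told apart. They come from RefSeq (GRCm38.p6), which held both genes, and capitals mark the seed, bases 2 to 8.
miR-204-5p: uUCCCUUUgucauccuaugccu
miR-211-5p: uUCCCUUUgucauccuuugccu
miR-7670-3p: uUCCCUUUcugaauaucuguaga
miR-204-3p: gCUGGGAAggcaaagggacgu
miR-211-3p: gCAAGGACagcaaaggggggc

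The 5p arms of miR-204 and miR-211, 22 nt each, were identical at 21 positions and differed by A17U, counted from 1 at the 5′ end with the miR-204 base first. Their first 16 bases were the same, so a read that ends before base 17 carries nothing to separate them. The 3p arms, 21 nt each, shared 14 positions and had different seeds. Among the 1738 mature miRNAs of the RefSeq table, 3 carried the seed UCCCUUU: miR-204-5p, miR-211-5p and miR-7670-3p. miR-7670-3p shared its first 8 bases with miR-204-5p and then diverged. Its gene Mir7670, on chromosome 6, had 0 reads in both libraries. Taken as 3 reads of the total, a count of 0 allows a level of up to 1.26 CPM in replicate 1 and 0.676 CPM in replicate 2. The upper end of the two-sided 95% exact Poisson interval is 1.55 CPM and 0.832 CPM. Here CPM are counts per 1e6 reads, reads on the gene's strand relative to all such reads over miRNA genes. Of the 3 genes with this seed, Mir204 and Mir211 were thus the ones with reads.

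Mir204 (ENSMUSG00000065507.3) lies on chromosome 19 at 22750605 to 22750672, plus strand (mm10), in an intron of Trpm3. Mir211 (ENSMUSG00000065585.1) lies on chromosome 7 at 64205806 to 64205911, plus strand, in an intron of Trpm1. Both hairpins have the orientation of their host and overlap no exon of it. In Trpm3-201 and in Trpm1-201, transcripts of 27 exons each, the hairpin stands in intron 6. That placing holds in 14 of the 18 annotated Trpm3 transcripts that span Mir204 and in 8 of the 12 Trpm1 transcripts that span Mir211. The surroundings differ in scale, since intron 6 is 33462 bases long in Trpm3-201 and 3682 bases long in Trpm1-201. The Mir204 hairpin begins 611.6 kb from the first annotated base of Trpm3, a gene of 856.4 kb, and the Mir211 hairpin 51.97 kb from that of Trpm1, a gene of 115.9 kb. Of the other 6 mouse Trpm genes, from Trpm2 to Trpm8, none contained an annotated miRNA gene. Trpm1 contained 1 more, Mir6416, on the opposite strand, with 0 reads in both libraries.

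**Figure D1:**
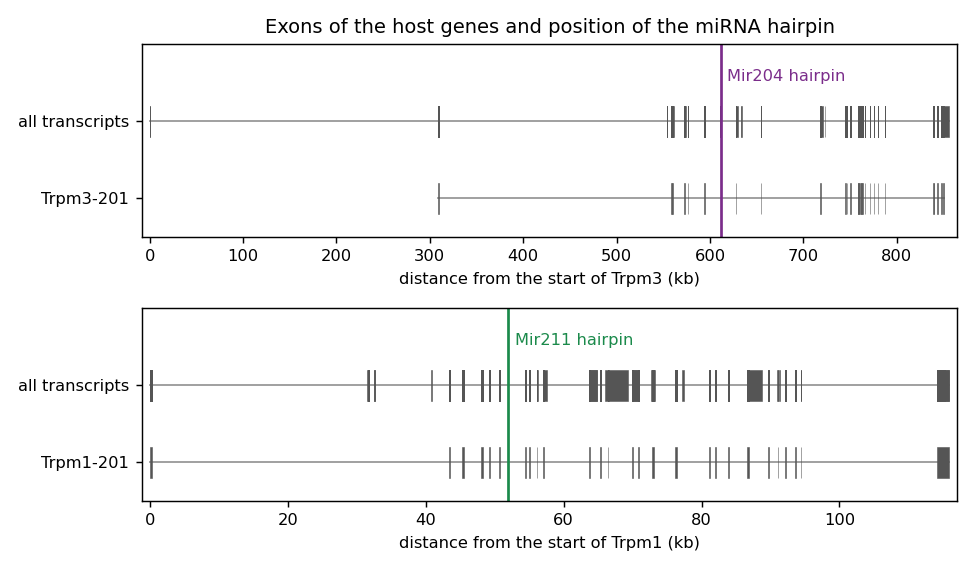
Annotated exons (grey bars) along Trpm3 and Trpm1, for all transcripts together and for transcripts Trpm3-201 and Trpm1-201, against the distance from the start of the gene in kb. The coloured line is the miRNA hairpin, which lies between exons of its host, at 611.6 kb in Trpm3 and at 51.97 kb in Trpm1.

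The libraries held 8041772 reads in replicate 1 and 12239366 in replicate 2. Of these, 2381663 and 4436398 lay on the strand of a miRNA gene. Reads that map to several places, 35.6% of replicate 1 and 44.8% of replicate 2, are counted under no gene. Unmapped reads made up 30.8% of replicate 1 and 14.6% of replicate 2, so the libraries also differed in this. Neuronal miRNAs were read in the tissue: a list of 17 loci summed to 98920 CPM in replicate 1 and 78409 CPM in replicate 2. That neuron list was led by Mir132 at 56498 ± 18595 CPM (SD, n = 2), Mir128-1 at 16709 ± 3331 CPM, Mir137 at 6171 ± 958 CPM and Mir128-2 at 3027 ± 223 CPM. Most of the sum was Mir132 in both libraries. Lowest, apart from the Mir124a loci, were Mir9-3 at 50.8 ± 1.78 CPM, Mir218-1 at 21.7 ± 5.08 CPM, Mir9-1 at 15.3 ± 2.61 CPM and Mir9-2 at 1.61 ± 0.688 CPM. The 3 Mir124a loci, of the hallmark neuronal miRNA, had 0 to 4 reads per library. They give the same mature miRNA, and reads that map to several places are left out, so these counts do not give the level of miR-124.

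Mir204 was a miRNA of moderate level in the cortex and Mir211 was counted at a few reads per library. Mir204 had 1593 reads in replicate 1, which is 669 CPM (95% exact Poisson interval 636 to 703), and 2585 reads in replicate 2, which is 583 CPM (560 to 606). Mir211 had 8 reads in replicate 1, which is 3.36 CPM (1.45 to 6.62), and 30 reads in replicate 2, which is 6.76 CPM (4.56 to 9.65). Mir204 was thus higher than Mir211 in both libraries, and the levels of the 2 genes did not overlap. PCR copies are not independent molecules, and the intervals hold for counting error alone. The mean was 626 ± 60.9 CPM for Mir204 and 5.06 ± 2.41 CPM for Mir211 (SD, n = 2 each). Mir211 lay above both limits given for a count of 0, although in replicate 1 its lower bound of 1.45 CPM was below the Poisson bound of 1.55 CPM. The spread between the libraries was 9.74% of the mean for Mir204 and 47.6% for Mir211.

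**Figure D2:**
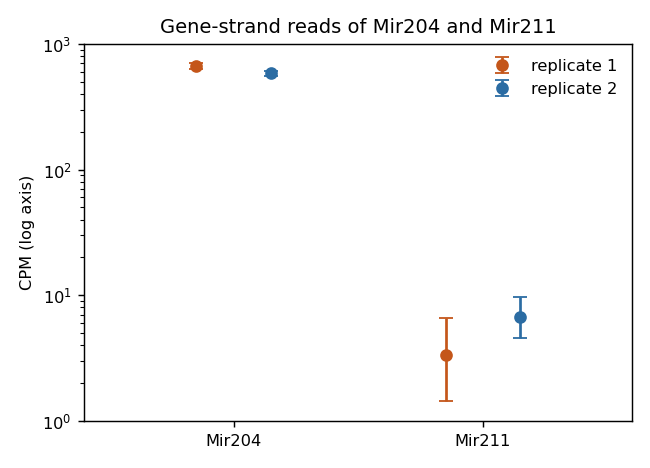
Level of Mir204 and Mir211 in each library, in CPM on a log axis, with 95% exact Poisson intervals of the count as bars. Mir204 lies at 669 and 583 CPM, Mir211 at 3.36 and 6.76 CPM.

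Of the reads of the pair, Mir204 took 99.5% in replicate 1 (95% exact Clopper-Pearson interval 99.02 to 99.78) and 98.9% in replicate 2 (98.37 to 99.22). The ratio of Mir204 to Mir211 reads was 199 in replicate 1 (95% interval 101 to 462) and 86.2 in replicate 2 (60.2 to 128). The mean log2 ratio was 7.03 ± 0.85 (SD, n = 2). Both mature 5p arms are 22 nt long. Per base of the hairpin, 68 bases for Mir204 and 106 for Mir211, Mir204 stood at 9.84 and 8.57 CPM per base in replicates 1 and 2, and Mir211 at 0.0317 and 0.0638. Mir204 was higher in 2 of 2 libraries, where a two-sided exact sign test cannot go below p = 0.5. The share of Mir204 was higher in replicate 1 than in replicate 2 (two-sided Fisher's exact test on reads, p = 0.0299, an odds ratio of 2.31). That test compares 2 libraries under counting noise alone.

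Mir211 reads numbered 0.502 per 100 Mir204 reads in replicate 1 and 1.16 per 100 in replicate 2. The 5p arms of the pair differ at 1 base, and the tables hold no read sequences, so how many Mir211 counts are Mir204 reads with a changed base 17 was not tested. Neither hairpin shared a word of 20 bases with another gene among 55450 genes with annotated transcripts, on either strand. At 16 bases each hairpin shared a word with the other and with 10 further genes. Between the hairpins the longest identical stretch was 17 bases. Neither gene had a read on the opposite strand in either library, and no miRNA gene is annotated there. The counts give a hairpin's reads without saying from which arm they came.

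By mean level Mir204 ranked 115 and Mir211 ranked 358 of 2202 genes, of which 728 had any read. In replicates 1 and 2 the ranks were 110 and 117 for Mir204, and 379 and 340 for Mir211. Ranks here and below leave out reads that map to several places. Genes that share a mature sequence, such as the Mir124a loci, can therefore stand too low. The ranges of 14 other genes overlapped the range of Mir204, and those of 96 other genes overlapped the range of Mir211. Directly above Mir204 stood Mir1843a at 634 ± 98.4 CPM and directly below it Mir425 at 597 ± 98.5 CPM. Directly above Mir211 stood Mir7056 at 5.11 ± 0.103 CPM and directly below it Gm23394 at 4.999 ± 0.0562 CPM. None of these neighbours differed from the paralog beside it by more than their summed SD. They were named because they adjoin the pair in the order, after their values were seen.

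**Figure D3:**
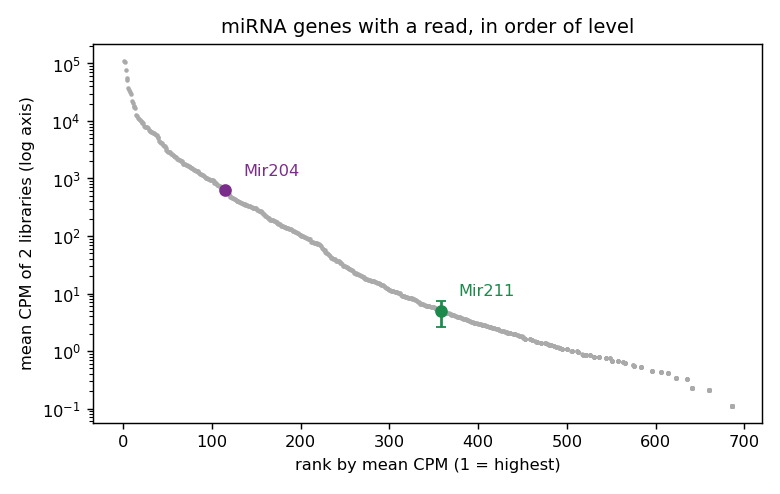
Mean CPM over both libraries (log axis) of each miRNA gene with a read, against its rank from the highest. Mir204 at rank 115 and Mir211 at rank 358 are coloured, with the SD over 2 libraries as bars.

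Likeness of pattern was measured as the Euclidean distance of log2 CPM over the 2 libraries, among the 367 genes with at least 10 reads in each. Nearest to Mir204 were Mir425 at a distance of 0.14, Mir532 at 0.32 and Mir146 at 0.32. Mir532, in an intron of the chloride transporter gene Clcn5, had 765 CPM in replicate 1 and 693 CPM in replicate 2. Mir146, a miRNA induced by NF-kB that dampens its signalling, stood at 749 and 707 CPM. Nearest to Mir211 were Gm24589 at a distance of 0.42, Mir6986 at 0.46 and Mir7240 at 0.46. They had 10 and 36 reads for Gm24589 in replicates 1 and 2, 10 and 24 for Mir6986, and 11 and 29 for Mir7240. Mir211 itself, with 8 reads in replicate 1, misses the minimum set for these genes, so none as low as it could be chosen. With 2 libraries, likeness says little beyond a similar mean level.

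As intronic miRNAs of channel genes, the pair was set among other intronic miRNA genes. In an intron of a protein-coding gene on their own strand lay 741 annotated miRNA genes, of which 404 had no read. Mir204 ranked 39 and Mir211 ranked 139 of them, and the median of the 337 with a read was 2.95 CPM. Genes for ion channels and neurotransmitter receptors, recognised by how their symbols begin, hosted 26 of these miRNA genes in 14 hosts. That count includes Grina and Gripap1, which begin alike but encode no channel. It also includes Clcn5, the chloride transporter gene, with 5 of the miRNA genes. Mir204 ranked 2 there, and 3 in replicate 2 alone. By mean it stood below only Mir532, in Clcn5, at 729 ± 51.1 CPM. Next below Mir204 was Mir346, in the glutamate receptor gene Grid1, at 569 ± 281 CPM. Neither neighbour differed from Mir204 by more than the summed SD. Mir211 ranked 14 of 26.

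Of the other 4 miRNA genes in Clcn5, 3 came next, Mir501 at 432 ± 124 CPM, Mir188 at 238 ± 37.6 CPM and Mir500 at 127 ± 20.7 CPM, and Mir362 stood at 10.1 ± 7.12 CPM. Mir1198 in Gripap1 stood at 102 ± 22.3 CPM.

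The choroid plexus, the epithelium that secretes cerebrospinal fluid, lies in the brain's ventricles. miRNAs known from it and from ciliated cells were set beside Mir204. The list has 10 loci. Of these, 5 lie in introns of Htr2c, a serotonin receptor gene used strongly in choroid plexus and also in neurons, and 5 belong to the miR-34 and miR-449 family, which acts in the formation of motile cilia. Reads were found at 9 of the 10, and Mir449b had none. The list summed to 557 CPM in replicate 1 and 308 CPM in replicate 2, so Mir204 alone was 1.20 and 1.89 times that sum.

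The Htr2c loci summed to 141 CPM in replicate 1 and 153 CPM in replicate 2. In replicates 1 and 2, Mir1298 led them at 84.4 and 90.8 CPM, with Mir1264 at 29.4 and 24.3, Mir448 at 16.8 and 17.1 and Mir764 at 10.5 and 19.8 CPM. Mir1912 had 0 reads in replicate 1 and 2 in replicate 2. Gm22650, in Htr2c but not on the list, had 9 reads in replicate 1 and 7 in replicate 2.

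The miR-34 and miR-449 loci summed to 416 CPM in replicate 1 and 156 CPM in replicate 2, mostly through Mir34c at 368 and 121 CPM. Mir449a stood at 33.2 and 27.3 CPM, Mir34b at 13.4 and 7.44 CPM, and Mir449c had 2 reads in replicate 1 and 0 in replicate 2. Mir34c was thus the locus of the list that differed most in CPM between the libraries. In bulk tissue, fewer cells of a type and less RNA per cell cannot be told apart, so these levels do not give the share of choroid plexus in the sample. The part of choroid plexus cells in the Mir204 reads was not tested.

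For Mir211, known from pigment cells and retina, a list of 4 retinal and sensory loci summed to 200 CPM in replicate 1 and 216 CPM in replicate 2. It is called the retina and pigment list below. Most of it was Mir184, a miRNA of lens and cornea, at 122 and 165 CPM, so its sum is not a measure of pigment cells. Of the sensory cluster, Mir183 stood at 47.9 and 35.2 CPM, Mir182 at 22.5 ± 9.17 CPM with 69 and 71 reads, and Mir96 had 3 reads in replicate 1 and 0 in replicate 2. Mir211 lay below Mir184, Mir183 and Mir182 in both libraries, and above Mir96 in both. The epithelium list of 7 loci summed to 353 CPM in replicate 1 and 373 CPM in replicate 2. Its 4 highest loci were Mir375 (264 ± 7.95 CPM), Mir429 (36.4 ± 7.24 CPM), Mir200b (29.7 ± 23.6 CPM) and Mir200c (20.8 ± 0.275 CPM). The 3 erythroid loci, markers of blood, summed to 97.8 and 67.4 CPM.

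**Figure D4:**
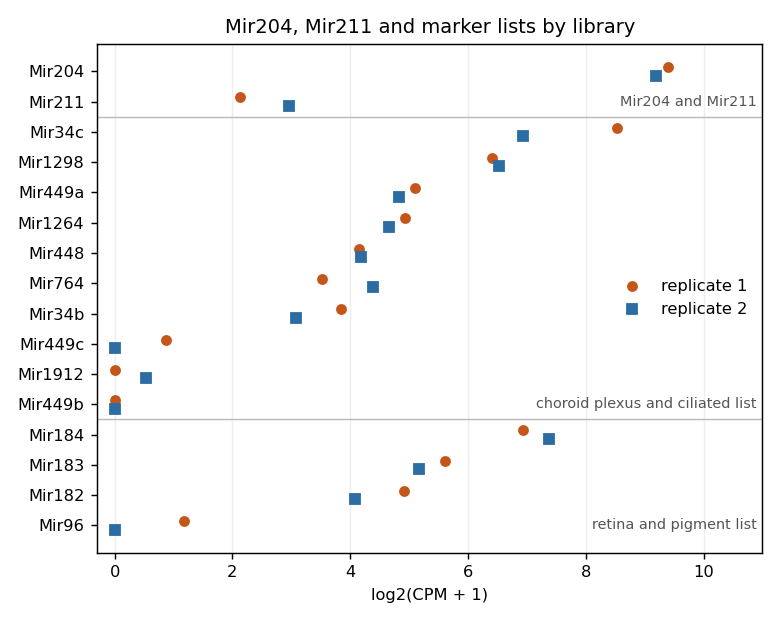
Level of Mir204, Mir211 and each member of the choroid plexus and ciliated list and of the retina and pigment list, as log2(CPM + 1), in replicate 1 (circles) and replicate 2 (squares). Mir204 lies above every listed locus in both libraries, and Mir34c differs most between them among loci of more than 100 CPM.

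Between the libraries Mir204 had a higher level in CPM in replicate 1 than in replicate 2, and Mir211 a lower one. The direction for Mir204 depends on the total used. As a share of all reads of the library, Mir204 was lower in replicate 1, at 0.0198% against 0.0211% in replicate 2. The log2 ratio of replicate 1 over replicate 2 was 0.23 for Mir204 (95% exact interval 0.14 to 0.32), after scaling by TMM. In a two-sided exact binomial test, which allows for counting noise alone, its adjusted p was 2.72e-06 (Benjamini-Hochberg over the 472 genes whose reads summed to 10 or more). That test called 52.1% of the genes, and 91.4% of the 58 other genes within 2-fold of the mean of Mir204, so most genes of this level were called. Of those 58 genes, 46 had a larger absolute log2 ratio than Mir204, and their median was 0.39 (both with a pseudocount of 1 CPM).

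The log2 ratio of Mir211 was -0.98 (95% exact interval -2.32 to 0.18), with an adjusted p of 0.154 in the exact binomial test. The interval holds no difference as well as a level in replicate 1 of 0.201 times that in replicate 2, and a difference was not detected at 38 reads in all. The same test called 19.2% of the 104 other genes within 2-fold of the mean of Mir211. With a common dispersion from the same libraries (a biological coefficient of variation of 0.351), edgeR's exact test gave an adjusted p of 1 for both genes and called 0.424% of 472 genes, which is 2 genes, with 28 at an unadjusted p under 0.05. That dispersion counts the difference between the 2 libraries as noise, so the test can say little about either gene.

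The marker lists moved as follows in the exact binomial test, against 24.6% of all 472 genes called higher and 27.5% called lower in replicate 1. Of 7 tested choroid plexus and ciliated loci, Mir34c (log2 ratio 1.63) and Mir34b (0.88) were called higher and Mir764 (-0.89) lower. The median log2(CPM + 1) ratio was 0.29 for these 7 loci and -0.07 over all genes tested. It was 0.46 for the retina and pigment list, 0.26 for the erythroid, 0.09 for the epithelium and -0.10 for the neuron list. Without TMM, the summed Htr2c loci had a log2 ratio of -0.11, and the summed miR-34 and miR-449 loci 1.42. Of 3 tested retina and pigment loci, Mir182 (0.88) and Mir183 (0.47) were called higher and Mir184 (-0.41) lower. Mir34c and Mir34b thus differed in the direction of Mir204 by more than Mir204 did, as did Mir182 and Mir183. A larger absolute log2 ratio than that of Mir204 was common, in 46 of the 58 genes within 2-fold of its mean. The other 4 tested loci of the choroid plexus and ciliated list did not pass. Their log2 ratios were 0.31 for Mir449a, 0.30 for Mir1264, -0.001 for Mir448 and -0.08 for Mir1298. The part of any of these loci in the Mir204 difference was not tested.

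**Figure D5:**
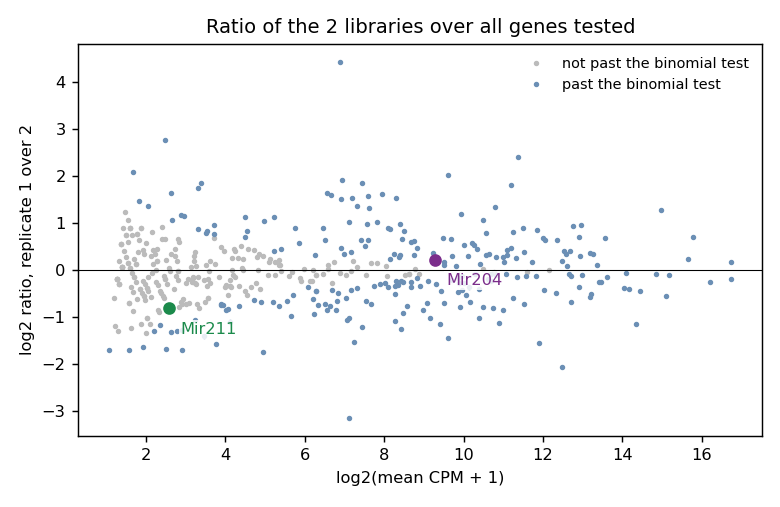
Log2 ratio of replicate 1 over replicate 2, with a pseudocount of 1 CPM, against log2(mean CPM + 1) for the 472 genes tested, blue where the exact binomial test called them. Mir204 lies at 0.23 among mostly called genes and Mir211 at -0.81 among mostly uncalled ones.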

How the data were processed

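The authors' deposited tables hold whole-number read counts per miRNA gene, on mm10 with GENCODE M21 per their accompanying notes. The aligner and any trimming were not given in the sources used here. Gene-strand counts were used, in a column identified from the layout and values because the tables have no header, and the 4 summary lines stayed out of library sizes. Reads that map to several places are under no gene, so short reads common to both paralogs can be missing from the counts.

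Counts were scaled to CPM by the gene-strand total. Levels are means with SD over 2 libraries. TMM factors from edgeR 4.0.16 (R 4.3.3), over genes with 10 or more reads, were 0.990 and 1.01 and entered the comparison of the libraries. With 1 group no quasi-likelihood test exists, so an exact binomial test was used. It was run on simulated counts with counting noise alone, which cannot show how it behaves where libraries differ by more than that. Python 3.11.15 with scipy 1.17.1 and pandas 2.3.3 did the rest. Host transcripts came from GENCODE M21 and sequences from RefSeq, whose hairpins equal the annotated transcripts.

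Most genes were named by rule: the pair, members of the choroid plexus and retina lists, the 3 nearest genes of each by level, up to 10 miRNA genes in channel genes, seed mates, and the 4 highest of the neuron and epithelium lists. Named outside this rule were neighbours in the order, Mir362, Gm22650, Mir6416, the Mir124a loci and other low loci of the neuron and epithelium lists. The rule for the pair uses symbols and not levels. That rule, the 5 lists and the tests were chosen with earlier results of these data known. Alternatives covered strand, scaling, read minimum, pseudocount, dispersion, word length and each library alone.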

Additional observations from a re-analysis of the deposited data

How the results depend on the processing

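Scaled to all reads of the library, lines without a gene included, the mean level in CPM was 205 for Mir204, 1.72 for Mir211, 138 for the choroid plexus and ciliated list and 68.8 for the retina and pigment list, lower because the total is larger. With both strands counted together, the rank was 103 for Mir204 among all genes and 34 among intronic ones, and the retina and pigment list summed to 227 CPM. Per base of hairpin, Mir204 ranked 109 and Mir211 ranked 390. From 1 library alone, the rank of Mir204 ran from 110 to 117. edgeR's exact test called 2 genes between the libraries, against 246 for the binomial test, and there the Mir204 log2 ratio of 0.23 lost its call, since that test counts the difference between the 2 libraries as noise. The adjusted p of Mir204 in the binomial test ran from 2.83e-10 to 4.45e-05 over the other scalings of miRNA reads, filters and the strand setting. Scaling to all reads of the library, where Mir204 was lower in replicate 1, was not used in that test. Words of 18 bases gave 1 gene that shares sequence with the pair (Plag1, with Mir211), and words of 16 bases gave 22, counted as 11 per hairpin. The other 52 of 66 recomputed values kept their direction and side of the threshold or moved by less than the spread between the libraries. Among them was every Mir204 over Mir211 ratio, from 6.43 to 7.67 on the log2 scale. Some of these could not have come out otherwise. A mean over 2 libraries always moves by less than their SD when 1 is left out. The ratio with both strands together could not change, since neither gene had an opposite-strand read. The pseudocount of 1 CPM for the ratio between libraries was chosen after seeing the data. With at least 10 reads in each library, Mir211 was not tested. No paired analysis was possible because there is 1 group. The 38 reads of Mir211 limit every statement on it.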
